A study of Arabidopsis thaliana with 8 samples.

Results

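The 9 genes described here are ZF14 (AT1G58340) and its closest relatives in the Arabidopsis thaliana family of MATE carriers, DTX49 to DTX56, chosen by gene identifier with earlier results of these data known. A row in the authors' deposited table of called genes was found for 3 of them, among 2958 rows in all, and the other 6 had no row. In the family's usual numbering the relatives are AT4G23030 (DTX49), AT5G52050 (DTX50), AT4G29140 (DTX51, symbol ADS1), AT5G19700 (DTX52), AT2G38510 (DTX53), AT1G71870 (DTX54), AT5G49130 (DTX55) and AT4G22790 (DTX56). The series asked by TARGET, a transient assay in leaf cells, which transcripts respond when the MYB-type transcription factor DIV1 is introduced. Poly(A) RNA was sequenced from protoplasts of Col-0 rosette leaves of 4-week-old plants in 8 libraries, 4 labelled div1 and 4 labelled ev. Both groups share the Col-0 background, the wall digestion, the plasmid uptake by polyethylene glycol and the overnight incubation. The label ev is not expanded, the promoter driving DIV1 is not given in the sources used here, and no sorting of transfected from untransfected cells is described. Nothing states that replicates came from separate plants, so p-values reflect spread that may be technical.

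MATE proteins (multidrug and toxic compound extrusion) are membrane carriers that export small molecules from the cytosol, commonly in exchange for protons or sodium ions. Plants have many of them, which move flavonoids, citrate, alkaloids, hormones and foreign compounds out of the cell or into the vacuole and other compartments. ZF14, also called BCD1 or ZRIZI, is annotated as a carrier of the Golgi and small organelles that helps set the rate of organ initiation and acts in iron homeostasis under osmotic stress. DTX50 is known as an efflux carrier of abscisic acid. ADS1 is annotated as a putative carrier that restrains disease resistance. DTX56, known as RHC1, takes part in stomatal closure at high carbon dioxide by acting on the kinase HT1. ADS1 and relatives of it in the clade are known to bind the autophagy protein ATG8 in the control of leaf senescence. The other members are annotated no further than as MATE efflux family proteins.

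The 3 listed members lay on 3 chromosomes, and 300 bases upstream of each annotated start are shown because the genes' calls differed in direction and DIV1 is a DNA-binding factor. Coordinates and sequence are those of the TAIR10.1 reference, plus strand for all 3. Capitals mark matches to any of 3 motifs searched on both strands: GATAAG (the I-box core), TATCCA (an element bound by MYB-related factors of the DIV1 type) and CACGTG (the G-box, a bZIP and bHLH element).
ZF14 (chr1:21652688-21652987): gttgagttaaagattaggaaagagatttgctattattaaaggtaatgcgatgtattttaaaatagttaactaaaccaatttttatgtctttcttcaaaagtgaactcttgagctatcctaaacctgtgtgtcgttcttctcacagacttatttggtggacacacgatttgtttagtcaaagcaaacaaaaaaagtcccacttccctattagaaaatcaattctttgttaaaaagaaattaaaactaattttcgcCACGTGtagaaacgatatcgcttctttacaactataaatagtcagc
DTX50 (chr5:21138403-21138702): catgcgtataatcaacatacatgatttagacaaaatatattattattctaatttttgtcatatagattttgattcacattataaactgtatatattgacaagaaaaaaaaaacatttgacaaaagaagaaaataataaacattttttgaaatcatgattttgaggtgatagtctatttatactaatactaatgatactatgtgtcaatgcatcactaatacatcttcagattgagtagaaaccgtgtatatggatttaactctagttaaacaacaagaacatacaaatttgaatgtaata
DTX49 (chr4:12072460-12072759): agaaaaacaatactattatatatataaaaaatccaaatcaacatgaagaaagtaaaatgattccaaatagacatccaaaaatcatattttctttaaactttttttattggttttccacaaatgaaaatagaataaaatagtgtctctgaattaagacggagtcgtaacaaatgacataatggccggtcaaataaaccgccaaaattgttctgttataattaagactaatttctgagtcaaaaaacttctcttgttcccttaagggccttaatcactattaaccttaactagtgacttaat
The windows of DTX50 and DTX49 held none of the 3 motifs, and that of ZF14 held a single G-box, which begins 46 bases before the start.

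Of the 9 members, 1 was called higher and 2 were called lower in the div1 libraries at an adjusted p under 0.05. The authors called 16.4% of the 18010 genes they tested, counted back from the p-values in their table, with 9.14% higher and 7.28% lower, and 5.67% were called with a change of at least 2-fold, as all 3 listed members were. The members were chosen with this contrast known, so their count is a description and nothing is read from it. The authors' deposited table does not name the numerator, and direction was read from DIV1 itself (AT5G58900), listed there at 7.61 ± 0.88 log2 units. Here and below, ± gives the authors' standard error of a log2 fold change. The table holds means over all 8 libraries, so values per library and library depth are unknown, and the authors' standard errors are the only measure of spread. In bulk RNA, fewer cells of a type and less RNA per cell cannot be told apart.

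ZF14 was the member that rose. It lies on chromosome 1 at 21652988 to 21655439, plus strand, with 2 exons, and encodes 532 residues. The authors' deposited table gives it a mean normalized count of 6599 and a log2 fold change of 3.33 ± 0.20, with adjusted p = 7.85e-59 from DESeq2. The 95% interval of the log2 fold change ran from 2.94 to 3.73. This is 10.1 times the ev level, with an interval of 7.68 to 13.2 times. The group means, worked out from the mean and fold listed, were 12006 normalized counts in div1 libraries and 1191 in ev libraries. Among the 1646 genes called higher, ZF14 stood at position 71 by fold change and position 6 by p. The 70 genes with a larger fold change had a median mean count of 64.2, and 1 of them, DIV1 itself, had a mean at least as high as that of ZF14. Of the 256 genes called higher whose mean lay within 2-fold of its own, ZF14 had the largest fold change, against a median of 0.58 on the log2 scale.

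**Figure D1:**
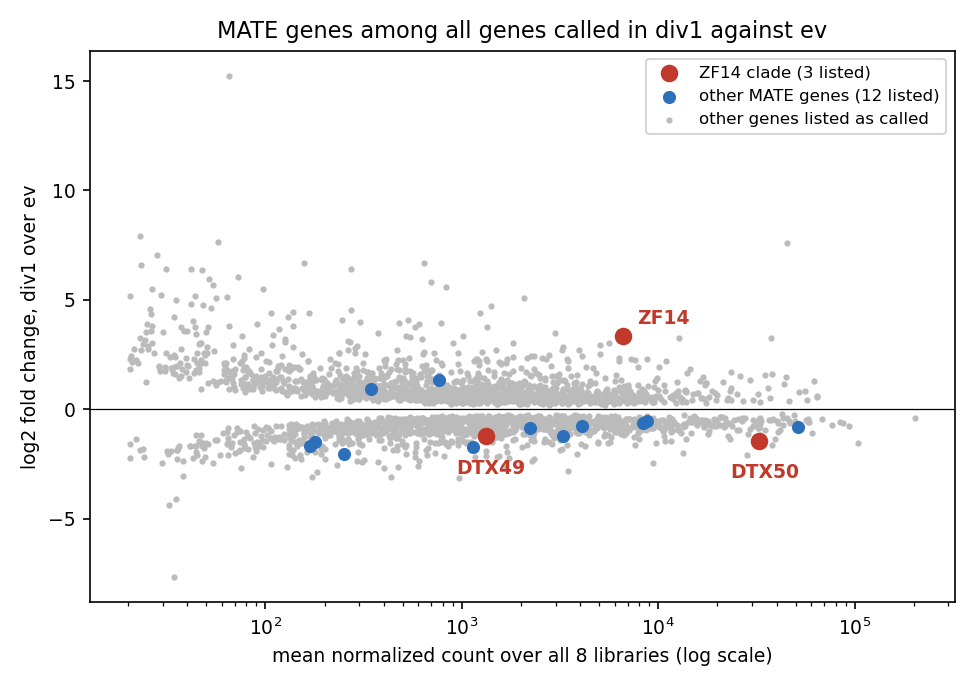
Mean normalized count over all 8 libraries (x, log scale) against the log2 fold change of div1 over ev (y) for the 2958 genes in the authors' deposited table. ZF14, at 3.33, lies at the upper edge of genes with its mean, while DTX49 and DTX50, at -1.22 and -1.44, lie below 0, DTX50 far to the right at a mean of 32562.

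DTX50, the abscisic acid carrier, fell. It lies on chromosome 5 at 21138703 to 21140876, plus strand, in a single exon, and encodes 505 residues. The authors' deposited table gives it a mean normalized count of 32562, number 55 from the top among all called genes, and a log2 fold change of -1.44 ± 0.16, with adjusted p = 1.69e-17 from DESeq2. The 95% interval of the log2 fold change ran from -1.75 to -1.13. The div1 level was 0.369 of the ev level, with an interval of 0.297 to 0.457. Estimated means were 17544 normalized counts in div1 libraries and 47579.5 in ev libraries. Among the 1312 genes called lower it stood at position 14 by p and position 186 by fold change. Among the 86 of these with a mean within 2-fold of its own it held position 3 by size of decrease, beside a median log2 fold change of -0.62.

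AT4G23030 (DTX49), whose substrate is not annotated, also fell. It lies on chromosome 4 at 12072760 to 12074580, plus strand, in a single exon, and encodes 502 residues. The authors' deposited table gives it a mean normalized count of 1323 and a log2 fold change of -1.22 ± 0.26, with adjusted p = 5.97e-05 from DESeq2. The 95% interval of the log2 fold change ran from -1.74 to -0.71. The div1 level was 0.428 of the ev level, with an interval of 0.300 to 0.610. Estimated means were 793 normalized counts in div1 libraries and 1853 in ev libraries. Its fold change was less precisely fixed than those of most called genes of like abundance, 88.9% of which had a standard error at most as large. The same share was 80.5% for ZF14 and 52.7% for DTX50. The intervals of DTX49 and DTX50 overlap, and the difference between the sizes of their decreases was not tested. The interval of ZF14 overlaps neither.

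Levels of different genes were compared as estimated normalized counts per kb of annotated transcript. In div1 libraries DTX50 had 8070.1, ZF14 5731 and DTX49 436 per kb. In ev libraries DTX50 had 21886, DTX49 1018 and ZF14 569 per kb. DTX50 thus had the highest estimated level of the 3 in both groups, while ZF14 and DTX49 stood in opposite order. DTX50 stood at 1.41 times ZF14 in div1 libraries and at 38.5 times ZF14 in ev libraries on this scale. ZF14 stood at 13.2 times DTX49 in div1 libraries and at 0.559 of it in ev libraries. Of the summed level of the 3 genes, 14237 per kb in div1 libraries and 23472 per kb in ev libraries, ZF14 made up 40.3% in div1 and 2.42% in ev. The sum was lower in div1 libraries, although the gene with the largest change was higher there. These estimates carry no error of their own, and the 6 members without a row are not in the sum.

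**Figure D2:**
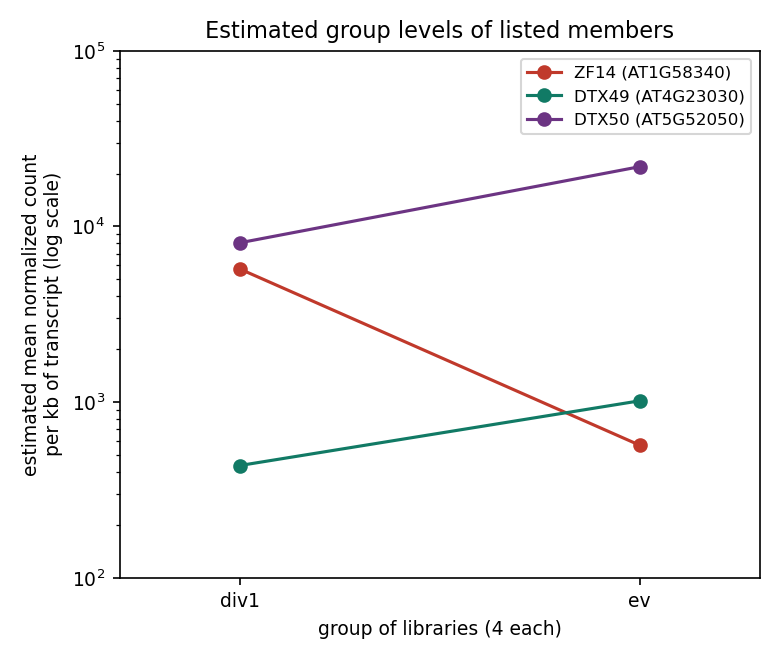
Estimated mean normalized count per kb of annotated transcript (y, log scale) of the 3 listed members in div1 and ev libraries (4 each), with lines joining the same gene. The line of ZF14 crosses that of DTX49 and comes close to that of DTX50 in div1, where they stand at 5731 and 8070.1.

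The other 6 members, ADS1, DTX52, DTX53, DTX54, DTX55 and RHC1 (DTX56), had no row. A gene without a row was either tested and had an adjusted p of at least 0.05, or was left without an adjusted p, for example for low counts, and the deposited table cannot separate these. The largest p listed was 0.0082, which corresponds to a test statistic of 2.64. At the median standard error of listed genes, 0.189, a tested gene would have been listed from a log2 change of about 0.50. The standard errors of these 6 members are unknown. At a larger one, such as the 0.75 of the MATE gene AT1G66780, a larger change would be needed for a row. Whether these 6 genes are expressed in the protoplasts is therefore unknown, and no difference between them and the 3 listed members was tested.

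Each member's closest relative in the family was another member. In global alignments of the translated TAIR10.1 coding sequences, the 36 pairs of members shared between 33.5% and 64.4% of aligned residues, with a median of 46.7%. Against the 46 other MATE genes identity ran from 18.9% to 35.9%, with a median of 28.4%. The 3 listed members shared between 51.4% and 60.5% of aligned residues, a range that some members without a row also reached with them. DTX52 shared 51.9% with ZF14 and 52.3% with DTX49, and ADS1 shared 52.0% with DTX49. ZF14 and DTX49 were each other's closest relative at 60.5% identity, yet ZF14 was called higher and DTX49 lower. The closest relative of DTX50 was also DTX49, at 57.0%, and these 2 were both lower. ZF14 and DTX50 shared 51.4% of aligned residues. The pair with the highest identity, ADS1 and DTX52 at 64.4%, had no row. RHC1 was the most distant member, between 33.5% and 40.9% from the others.

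**Figure D3:**
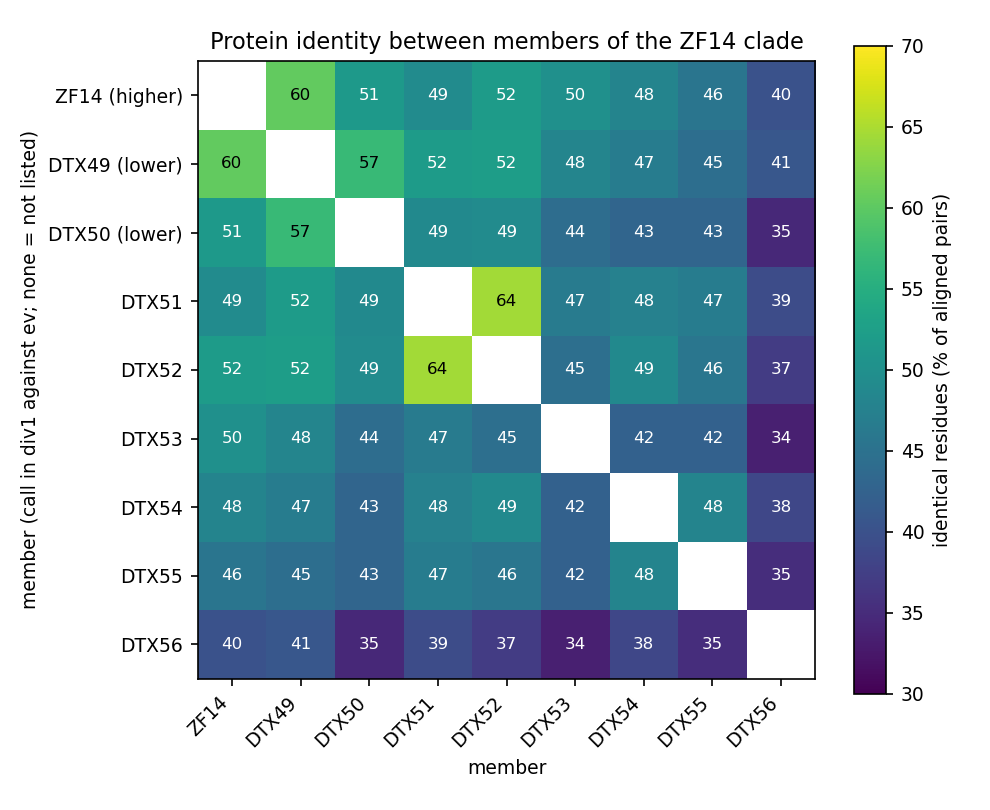
Identical residues as a percentage of aligned residue pairs for all pairs of the 9 members, with the call in div1 against ev beside the row names. ZF14, DTX49 and DTX50 sit in the upper left block, where the order of rows places them, at 51% to 60% identity. DTX52, without a row, stands at 52% with both ZF14 and DTX49. ADS1 (DTX51) and DTX52 form the pair with the highest identity at 64%.

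Reads can be split between near-identical copies, so shared sequence was looked for. The longest stretch of coding bases identical between any 2 members was 23, and it was 20 between ZF14 and DTX49. Between members and other MATE genes the longest was 19. The length of the reads is not given in the sources used here. Of the 9 genes, DTX55 overlapped another annotated gene, AT5G49138 on the opposite strand, and none of the 3 listed members did. ZF14, DTX54 and DTX55 have 2 exons in their annotated transcript, and the other 6 members, DTX50 and DTX49 included, have 1.

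The nearest genes on the chromosomes were looked at for calls of their own. Of the 36 protein-coding genes that flank the 9 members, 2 on each side, 5 had a row, or 13.9%, beside 16.4% of all genes tested. Flanking genes that were not tested stay in the first share, which is then too low. None of the 4 around ZF14 and none of the 4 around DTX49 had a row. Beside DTX50, the authors' deposited table puts BAG1, a co-chaperone gene whose near end lies 11134 bases away, at -0.44 ± 0.15 log2 units. The rows near unlisted members were SNF7.1 beside ADS1, CIPK22 beside DTX53, the sucrose carrier gene SUC1 beside DTX54 and AT4G22820 beside RHC1, all higher in div1 libraries. The authors' deposited table puts SUC1 at 1.28 ± 0.29 and AT4G22820 at 1.18 ± 0.15 log2 units.

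The 3 motifs were counted in the 300 bases upstream of each of the 9 members, and with so few windows nothing is read from their shares. GATAAG was found in 2 of 9 windows (22.2%), those of DTX52 and RHC1, beside 14.5% of the 27443 windows of all nuclear protein-coding genes. TATCCA was found in 2 of 9 (22.2%), those of ADS1 and DTX55, beside 16.2% of all windows. CACGTG was found in the window of ZF14, 1 of 9 (11.1%), beside 7.09% of all. Among all called genes, GATAAG stood in 21.1% of windows of genes called higher and 10.5% of those called lower. TATCCA stood in 21.7% of windows of genes called higher and 12.8% of those called lower. CACGTG, the motif ZF14 holds, stood in 9.11% of windows of genes called higher and 8.95% of those called lower. All 3 motifs stood in a larger share of windows of genes called higher than of all genes. For CACGTG the same held for genes called lower. The windows of all genes include genes that were not tested. Absence of a motif from a window says only that these letters are not there. In windows of 1000 bases, a length added after the shorter windows were seen, ZF14 and DTX50 still held neither GATAAG nor TATCCA, and DTX49 held GATAAG beginning 375 bases before its start. At this length GATAAG was in 6 of 9 members' windows and in 40.6% of all windows, TATCCA in 4 of 9 and in 43.8% of all, and CACGTG in 3 of 9 and in 14.8% of all.

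The rest of the MATE family was mostly lower where it was listed. Of the 46 other MATE genes, 2 were called higher, 10 lower, and 34 had no row, so that 26.1% of the list was called. Of all genes tested 16.4% were called, 9.14% higher and 7.28% lower. Genes of the list that were not tested stay in the first share, which is then too low. The counts of this list are a description, and no test of it was run. The median log2 fold change of the 12 listed was -0.83, that of the 3 listed clade members -1.22, and that of all 2958 called genes 0.41. The authors' deposited table has AT1G47530 higher at 1.33 ± 0.18 and AT3G26590 at 0.92 ± 0.19 log2 units. The 10 lower genes ran, in the authors' deposited table, from AT1G66760 at -0.53 ± 0.14 to AT1G66780 at -2.05 ± 0.75 log2 units. No other listed MATE gene had a 95% interval that reached that of ZF14, and the intervals of DTX49 and DTX50 lay among those of the lower genes.

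**Figure D4:**
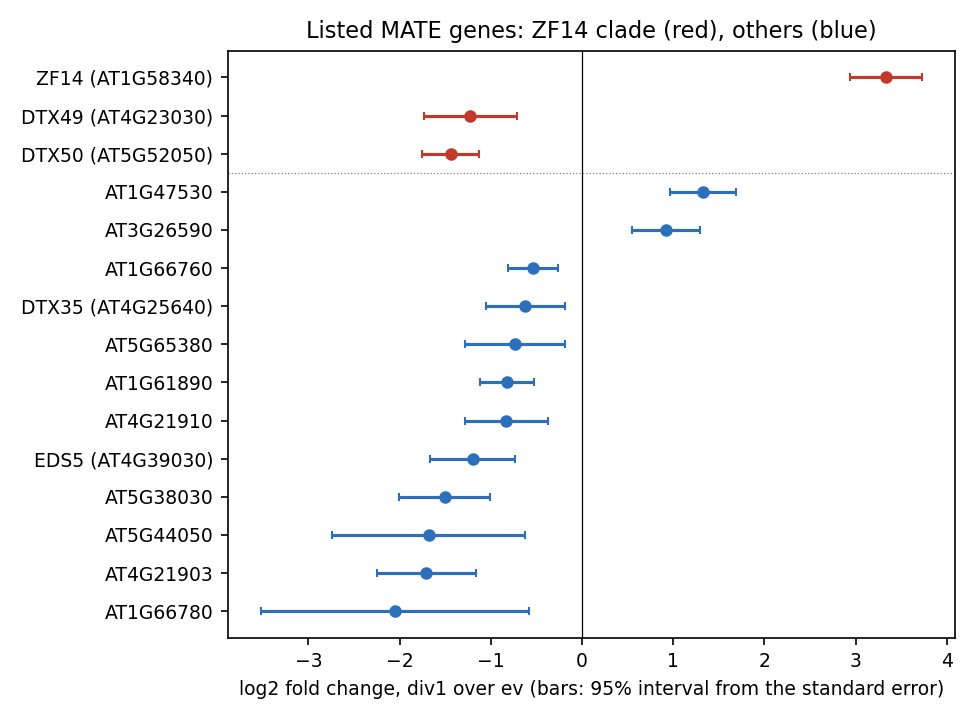
Log2 fold change of div1 over ev (x) with 95% intervals from the authors' standard errors for the 15 MATE genes with a row. ZF14 at 3.33 lies to the right of all others, DTX49 and DTX50 lie left of 0, and of the 12 other MATE genes 10 lie left of 0.

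Several of these genes have known roles. The authors' deposited table puts EDS5, a chloroplast carrier of the salicylic acid pathway, at -1.20 ± 0.24 log2 units. It puts DTX35, a flavonoid carrier of flowers, at -0.62 ± 0.22 log2 units. EDS5 overlaps a gene on the opposite strand and DTX35 one on its own strand. AT1G61890 had a higher level per length than any listed member, with a mean of 24343 normalized counts per kb of transcript, against 14978 for DTX50. The authors' deposited table gives it a log2 fold change of -0.82 ± 0.15. Among the listed MATE genes outside the clade, the closest pair had opposite calls, while the next closest pairs were called in the same direction. AT3G26590 and AT5G38030 were 88.6% identical in protein, and the authors' deposited table puts the first at 0.92 ± 0.19 and the second at -1.51 ± 0.25 log2 units. Their coding sequences share up to 56 identical bases in a row, so part of their reads may be shared. The next closest pair, AT4G21903 and AT4G21910 at 83.3% identity, were both lower. The authors' deposited table puts them at -1.71 ± 0.28 and -0.83 ± 0.23 log2 units. AT5G65380 and AT5G44050, at 71.0% identity, were also both lower, at -0.74 ± 0.28 and -1.68 ± 0.54 in the authors' deposited table. Whether direction goes with identity was not tested.

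Genes that work beside members of the clade were counted from lists drawn up by role, with earlier results of these data known. The counts of these lists, here and in the next paragraph, are a description and nothing is read from them. Of 6 other transporters linked to abscisic acid, 3 were higher, 1 was lower and 2 had no row. That is 66.7% of the list called, beside 16.4% of all genes tested, of which 9.14% were higher and 7.28% lower. The authors' deposited table puts ABCG30, an importer known from seed embryos, at 3.04 ± 0.23 and AT1G69850, an importer also known as the nitrate carrier NRT1:2, at 0.89 ± 0.21 log2 units. It puts ABCG31, an exporter known from seed endosperm, at 0.72 ± 0.21 and ABCG22, needed for normal stomatal control, at -1.95 ± 0.45 log2 units. DTX50, at -1.44, therefore went with ABCG22 and against the other 3. ABCG30 overlaps a gene on its own strand.

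Of the 9 ATG8 genes, 3 were higher, 0 lower and 6 had no row, so that 33.3% of the list was called, all of it higher, beside 9.14% higher among all genes tested. The authors' deposited table puts ATG8B at 0.76 ± 0.22, ATG8E at 0.74 ± 0.20 and AT3G15580 (ATG8I), which overlaps a gene on the opposite strand, at 0.34 ± 0.11 log2 units. Of the 7 genes of stomatal carbon dioxide signalling around RHC1, 6 had no row, so that 14.3% was called, close to the 16.4% of all genes tested. The authors' deposited table puts the other, MPK12, a guard cell kinase, at -1.01 ± 0.36 log2 units with a mean normalized count of 63.5. List genes that were not tested stay in the shares of these lists, which are then too low. Of 17 genes of iron supply 16 had no row, so that 5.88% of the list was called, beside 16.4% of all genes tested. The authors' deposited table puts the exception, the ferritin gene FER3, at 0.33 ± 0.12 log2 units. Markers of leaf cell types gave 0 calls in 4 mesophyll, 7 guard cell, 4 epidermis and 5 vascular genes, beside 16.4% called among all genes tested. The table of called genes cannot show whether these markers were present, so the labelled tissue could not be checked against them, and their part in the changes of ZF14, DTX50 and DTX49 was not tested.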

How the data were processed

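Per the submitters' processing notes the authors' tools were DESeq2, featureCounts 2.0.1, HISAT2 and fastp 0.21.0, on TAIR10. Their settings and filters are not given. Per the file headers, the deposited table gives a mean normalized count (a signal averaged over all libraries), a log2 fold change, the standard error of that value, a test statistic (a score), and p-values before and after adjustment. The deposited score equals the log2 fold change over its standard error in each row. Only genes with an adjusted p under 0.05 are listed, and depth per library is unknown.

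No test of samples was run. The number of genes tested was taken as the largest value of adjusted p times rank divided by p, a step tested on simulated data. Group means assume 4 libraries in each group. Intervals are at 95%, from the authors' standard errors. Gene models and sequence came from RefSeq's TAIR10.1, whose identifiers matched 2957 of 2958 rows. Proteins were aligned globally (BLOSUM62, gap penalties 11 and 1) with Biopython 1.88, on Python 3.11.15 with pandas 2.3.3. Members and lists were chosen with earlier results of these data known. Each member is named, other MATE genes and list genes where listed, and flanking genes and close copy pairs after their values were seen.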

Additional observations from a re-analysis of the deposited data

How the results depend on the processing

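The 3 calls in the clade were unchanged in number at an adjusted p under 0.01 or 0.001, under a Bonferroni adjustment over 18010 genes, at a change of at least 2-fold and at a mean of at least 50. Under Bonferroni, which leaves 824 of all 2958 calls, DTX49 (AT4G23030) passed narrowly at 0.0489. Of the same 2958 calls, 1972 had an adjusted p under 0.01 and 1257 under 0.001. A change of at least 2-fold was held by 1022 of them, and a mean of at least 50 by 2838. Of the 12 calls in the other MATE genes, 8 had an adjusted p under 0.01 and 6 a change of at least 2-fold, 1 higher and 5 lower, and drawing the family from annotation terms gave 12. Members with GATAAG upstream numbered 1 on the gene's strand alone and 6 in 1000 bases, those with TATCCA 1 and 4, and those with CACGTG 3 in 1000 bases. The median identity between members was 45.6% over the shorter protein. Another normalization, another tool, a filter on low counts before testing, a left-out library and a replicate block were not run, as no values per library were used. No paired analysis was possible because the deposited table holds no value per library. Precision rests on the authors' standard errors, and genes without a row have none.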
